A study of Mus musculus with 4 samples.

Results

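Endothelial cells, the cells that line blood and lymph vessels, were taken from single-cell libraries of mouse embryonic thymic lobes as those cells that also carried almost no transcripts of mesenchyme. A cell had to hold at least 200 detected genes and at most 10% mitochondrial UMIs, and to have at least 4 of the 8 endothelial genes Pecam1, Cdh5, Kdr, Cldn5, Egfl7, Esam, Emcn, and Tie1 detected. It also had to have no UMI of Epcam (epithelium), Rag1 (lymphoid cells), or Pdgfra (mesenchyme), and at most 2 UMIs summed over the mesenchymal genes Twist1, Prrx1, and Lum. This left 426 cells of 29510 kept: 155 of 11474 in the Tbx1+/+ carrier library, 140 of 10683 in the Tbx1neo2/neo2 carrier library, 67 of 3201 in the Tbx1neo2/neo2 minoxidil library, and 64 of 4152 in the Tbx1neo2/neo2 PGE2 library. Values are given in this order of libraries throughout. The members made up 1.35% of the kept cells (exact binomial 95% interval 1.15 to 1.58), 1.31% (1.10 to 1.55), 2.09% (1.63 to 2.65), and 1.54% (1.19 to 1.96). The 8 endothelial genes and the genes required to be absent chose the cells, so their levels are descriptions only.

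The lobes came from embryos at E13 to 13.5, bred from Tbx1+/neo2 parents, and were digested with trypsin. The neo2 allele carries a neomycin cassette within an intron of Tbx1, a T-box transcription factor gene of the pharyngeal region, and lowers but does not abolish normal transcripts, in every cell and from the start of development. Dams received carrier (5% ethanol), minoxidil (200 µl at 0.55 mg/ml), or PGE2 (90 µl at 3.6 ng/µl) on E8, E9, and E10, so both carrier libraries saw ethanol. There was 1 library for each condition, hypoplastic lobes had been pooled, and how many embryos each library held is not known, so no difference between libraries could be tested against the spread between embryos. The intervals below cover counting error only and ignore that transcripts of 1 cell come together.

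In the embryo, endothelial cells differentiate into arterial cells, under Notch and VEGF signals, and venous cells, which depend on the nuclear receptor Nr2f2. Some venous cells switch on the transcription factor Prox1 and become lymphatic endothelium. In the thymus, vessels grow in together with the mesenchyme around the lobes, and blood-borne progenitors arrive before and through them.

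The cells carried the markers of their name. Levels are given in CPM, the UMIs of a gene per 1e+06 UMIs summed over the members of a library. Pecam1, an adhesion molecule of endothelial junctions, stood at 454, 556, 444, and 435 CPM. Cdh5, the adherens junction cadherin of endothelium, stood at 645, 841, 634, and 634 CPM. The VEGF receptor Kdr stood at 445, 573, 378, and 461 CPM, the tight junction gene Cldn5 at 596, 584, 687, and 682 CPM, and the sialomucin Emcn at 500, 648, 497, and 483 CPM. Against all other kept cells of the same library, the smallest of the 4 ratios was 19.9-fold for Pecam1, which blood cells also express, 16.7-fold for Egfl7, 34.9-fold for Esam, and between 43.4-fold and 66.8-fold for the other 5 genes. Of 2597 genes with at least 50 CPM in members, 54 were at least 20-fold higher in the members in every library. Outside the rule, these were led by Klhl4 (at least 66.7-fold in each library), the arterial transcription factor gene Sox17 (64.3), the apelin receptor gene Aplnr (63.5), Fam167b (55.9), Myct1 (54.8), the phosphatase gene Ptprb (50.5), Scarf1 (49.2), Adgrl4 (48.9), Arhgef15 (47.0), and Gpihbp1 (44.6), which anchors lipoprotein lipase in capillaries. The remaining 5 of the 15 highest were Plvap, of fenestrated endothelium, the VEGF receptor genes Flt4 and Flt1, the caveolar gene Cav1, and Sox18, at 40.5-fold to 43.4-fold. These genes travel with the rule's genes in the same cells, so the ratios describe the members and are not a test.

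Most members lay well inside the rule: 100, 104, 44, and 31 had all 8 endothelial genes detected, while 18, 5, 8, and 7 had exactly 4. Just outside it, 138, 41, 39, and 51 kept cells had exactly 3. Twist1, Prrx1, and Lum had no UMI in 132, 113, 53, and 58 members, 1 UMI in 20, 26, 13, and 6, and 2 UMIs in 3, 1, 1, and 0. Only 1, 0, 0, and 1 cells that met the rest of the rule had exactly 3 such UMIs, and 5, 3, 1, and 2 had more. The limits on absent genes removed 183, 94, 42, and 23 cells with at least 4 endothelial genes (54.1%, 40.2%, 38.5%, and 26.4% of such cells). Applied in turn, the limit on Epcam removed 147, 56, 29, and 13 of them, that on Rag1 8, 3, 5, and 3, and that on Pdgfra then 22, 32, 7, and 4.

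The libraries held 151740600 to 292687940 UMIs, and the members 5909941, 3700112, 3226425, and 2532503. The median member had 27563, 19292.5, 28711, and 25988 UMIs, from 950 in the Tbx1+/+ carrier library to 248547 in the PGE2 library, and the largest cell gave 2.16%, 2.40%, 7.39%, and 9.81% of its library's member UMIs. The median mitochondrial share of members was 4.25%, 5.62%, 4.38%, and 4.54%, highest in the Tbx1neo2/neo2 carrier library, where a limit of 5% would keep 41 of 140 members against 104 of 155, 42 of 67, and 40 of 64 in the others. This difference runs along with every comparison below, and its part in them was not tested. No 2 members of different libraries shared a cell barcode, although 91 barcodes of kept cells did occur in more than 1 library. Doublets were not removed beyond the rule. Scrublet, which scores likely doublets, marked 7, 0, 0, and 1 members, but it marked 0 of all 10683 kept cells of the Tbx1neo2/neo2 carrier library and so did not work there. Sex also differed between the libraries. Among members, 42, 16, 51, and 0 had Xist without a Y-linked transcript, 78, 94, 0, and 48 had a Y-linked transcript without Xist, and 10 and 3 of the carrier libraries had both. No minoxidil member thus had a Y-linked transcript and no PGE2 member had Xist, while both carrier libraries held each kind. Treatment, sex, and embryo cannot be told apart in the comparisons below.

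Each comparison set the members of 2 libraries side by side, for every gene with at least 20 UMIs in both together. Calls of higher or lower needed levels at least 1.5-fold apart and exact Poisson 95% intervals without overlap. The Tbx1neo2/neo2 carrier members were compared with the Tbx1+/+ carrier members to ask what the hypomorphic allele changed, and the minoxidil and PGE2 members were each compared with the Tbx1neo2/neo2 carrier members to ask what each drug changed. The last 2 comparisons share the Tbx1neo2/neo2 carrier library with each other and with the first, so a gene that is odd in that library moves in all 3. The median log2 ratio over all genes tested was -0.01, 0.06, and 0.02. Every ratio below is a log2 ratio with its 95% counting interval, for these 3 comparisons in turn.

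General endothelial genes barely separated the libraries. Of 25 tested outside the rule, 2 were called higher and 0 lower in the Tbx1neo2/neo2 carrier members than in Tbx1+/+ carrier members, against 3.39% of all 10747 genes called higher and 5.41% called lower. In the minoxidil members, 0 were called higher and 1 lower, against 7.31% and 2.66% of all 10411 genes. In the PGE2 members, 1 was called higher and 2 lower, against 5.23% and 2.5% of all 10099 genes. These shares over all genes are also the background for the counts in every list below. The Sox7 gene, whose product acts with Sox17 and Sox18 in vessel formation, was 1 of the 2 called higher in the Tbx1neo2/neo2 carrier members (78.2, 124, 83.7, and 58.1 CPM) and was called lower in the PGE2 members (-1.10). Cd93, a lectin-like receptor, followed the same pattern (ratios 0.61 and -0.65 in these 2 comparisons). The Sox7 call between the carrier members was lost with several other choices of cells, given with the Sox genes below.

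Arterial genes differed little between the carrier members, with 1 exception. Of 20 tested, 1 was called higher and 1 lower, with a median ratio of 0.09. Gja4, which encodes the gap junction protein connexin 37, stood at 113, 90, 101, and 131 CPM, and Efnb2, the ephrin ligand that marks arteries, at 91.0, 95.7, 98.6, and 83.7 CPM. These 2 genes were not called in any comparison. Notch1 stood at 119, 152, 130, and 108 CPM, and its ligand gene Dll4 at 40.6, 44.1, 37.8, and 25.7 CPM, called lower in the PGE2 members (-0.78). Notch4 (36.6, 51.9, 36.6, and 25.7 CPM, PGE2 ratio -1.02), the chemokine receptor gene Cxcr4 (22.2, 20.8, 28.5, and 8.29 CPM, -1.33), the netrin receptor gene Unc5b (51.1, 69.5, 31.6, and 39.1 CPM, -0.83), and the transcription factor gene Mecom (53.0, 81.1, 65.7, and 50.5 CPM, -0.68) were also called lower there. In the minoxidil members, 5 arterial genes were called higher and 1, Unc5b (-1.14), lower. In the PGE2 members, 5 were called higher and 5 lower, with a median of -0.33.

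The exception was Fbln5, whose product fibulin 5 helps to assemble elastic fibers (chromosome 12, 101746565 to 101819055, minus strand of mm10). It stood at 117, 2.70, 425, and 222 CPM, so it was lower in the Tbx1neo2/neo2 carrier members (ratio -5.44) and higher in both drug libraries (7.30 and 6.36). Eln, the elastin gene (chromosome 5, 134702593 to 134747323, minus strand), stood at 107, 0.81, 670, and 434 CPM, with 3 UMIs in all 140 Tbx1neo2/neo2 carrier members. Its ratios were -7.05 (-9.33 to -5.50), 9.69 (8.14 to 12), and 9.06 (7.51 to 11.3), the largest in each comparison among genes at 50 CPM or more. Mgp, which encodes matrix Gla protein, an inhibitor of calcification, stood at 93.6, 2.16, 518, and 145 CPM.

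**Figure D1:**
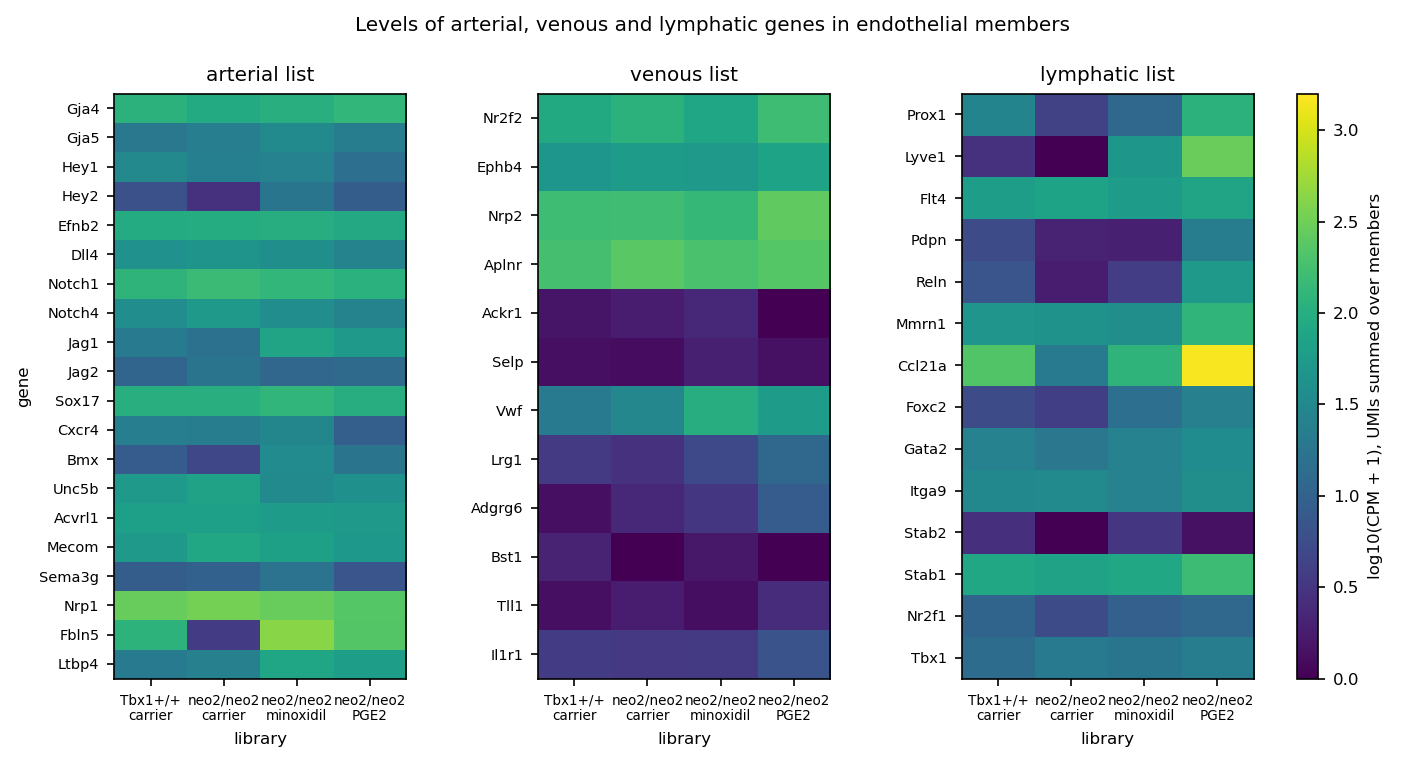
Heat map of the levels of arterial, venous, and lymphatic genes (rows) in the members of the 4 libraries (columns), colored by log10(CPM + 1). Efnb2 and Ephb4 vary little between columns, whereas Fbln5 is at 2.70 CPM in the Tbx1neo2/neo2 carrier column and at 117 CPM or more in the others, and Prox1, Lyve1, and Ccl21a peak in the PGE2 column.

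These 3 genes came from a few cells. Members with at least 3 UMIs each of Eln and Fbln5, a limit chosen after their values were seen, numbered 9, 0, 14, and 5. They were 5.81% of members (2.69 to 10.7) in the Tbx1+/+ carrier library, 20.9% (11.9 to 32.6) with minoxidil, and 7.81% (2.59 to 17.3) with PGE2, while 0 of 140 in the Tbx1neo2/neo2 carrier library allows a share of up to 2.14% by the floor of 3 counts and has an exact upper bound of 2.6%. They held 99.1%, 99.8%, and 95.5% of the Eln UMIs of the 3 libraries that had them. In the plot of Eln against Fbln5 these cells lay apart from the other members. Members with at least 3 UMIs of only 1 of these 2 genes numbered 1, 1, 1, and 8, most of them in the PGE2 library.

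All 28 of these cells fell in the arterial range defined below, and other artery genes were higher in them than in the other members of their libraries. Summed over the 3 libraries, Eln was at 7016 CPM in these cells and 5.49 CPM in the other members, Fbln5 at 4726 and 3.596, and Mgp at 4662 and 3.78. Gkn3, a marker of arterial endothelium, stood at 924 and 0.09 CPM, and Htra1, a secreted protease gene, at 710 and 1.62 CPM. The arterial Notch target Hey2 (172 and 0.99 CPM), the tyrosine kinase gene Bmx (346 and 0.72 CPM), the Notch ligand gene Jag1 (691 and 9.08 CPM), and Vwf, the gene of the clotting factor stored in endothelium (792 and 12.2 CPM), were also higher in these cells. Of the Hey2 and Bmx UMIs, 77.4% to 99.1% lay in them in each of the 3 libraries, but of the Vwf UMIs only 67.2% did in the Tbx1+/+ carrier and 48.9% in the PGE2 library, and of the Jag1 UMIs 77.9% and 56.5%. Gja4 (733 and 83.0 CPM) and Sox17 (572 and 86.0 CPM) were shared more widely with the other members. The cells were not deep, with a median of 12432, 23153, and 19480 UMIs.

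Several arterial genes called higher in the drug libraries were genes of these cells. Jag1 stood at 19.1, 14.6, 72.8, and 51.7 CPM, Hey2 at 5.25, 1.89, 16.7, and 7.90 CPM, and Bmx at 7.61, 3.78, 34.4, and 16.2 CPM. Jag1 ratios were 2.32 and 1.83 in the drug comparisons. Leaving out these cells and the Prox1 cells described below kept 139, 138, 52, and 43 members. It took Eln and Fbln5 cells from 3 libraries and none from the Tbx1neo2/neo2 carrier library, so the lower arterial ratios it gives follow from the choice of cells and are not a result. In the Tbx1neo2/neo2 carrier members, which had no Eln and Fbln5 cell by this limit, 1 cell of 44404 UMIs held 23.7% of the Gja4, 55.4% of the Gja5, 57.1% of the Hey2, 64.3% of the Bmx, and 33.0% of the Vwf UMIs of all 140. That cell had 1 Eln UMI and 5 Fbln5 UMIs.

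The number of Eln and Fbln5 cells moved with the mitochondrial limit. Their median mitochondrial share was 6.37%, 5.68%, and 4.89% in the 3 libraries that had them, and a limit of 5% in place of 10% left 0, 0, 2, and 3 of them, whereas a limit of 20% gave 9, 0, 16, and 5. With the limit of 5%, the ratios of Eln (1.32), Fbln5 (1.15), and Mgp (0.16) in the Tbx1neo2/neo2 carrier comparison turned positive. Without the limits on Pdgfra, Twist1, Prrx1, and Lum, such cells numbered 9, 8, 15, and 10, of which 9, 0, 15, and 9 also had at least 2 of the artery genes Gkn3, Bmx, Hey2, and Gja5. The 8 added in the Tbx1neo2/neo2 carrier library thus had Eln and Fbln5, which mesenchyme also expresses, but not this set of artery genes. With neither those limits nor those on Epcam and Rag1, the numbers were 13, 34, 24, and 12, of which 12, 2, 18, and 9 had the artery genes. Cells with the artery genes were thus fewest in the Tbx1neo2/neo2 carrier library under all 3 choices of limits.

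**Figure D2:**
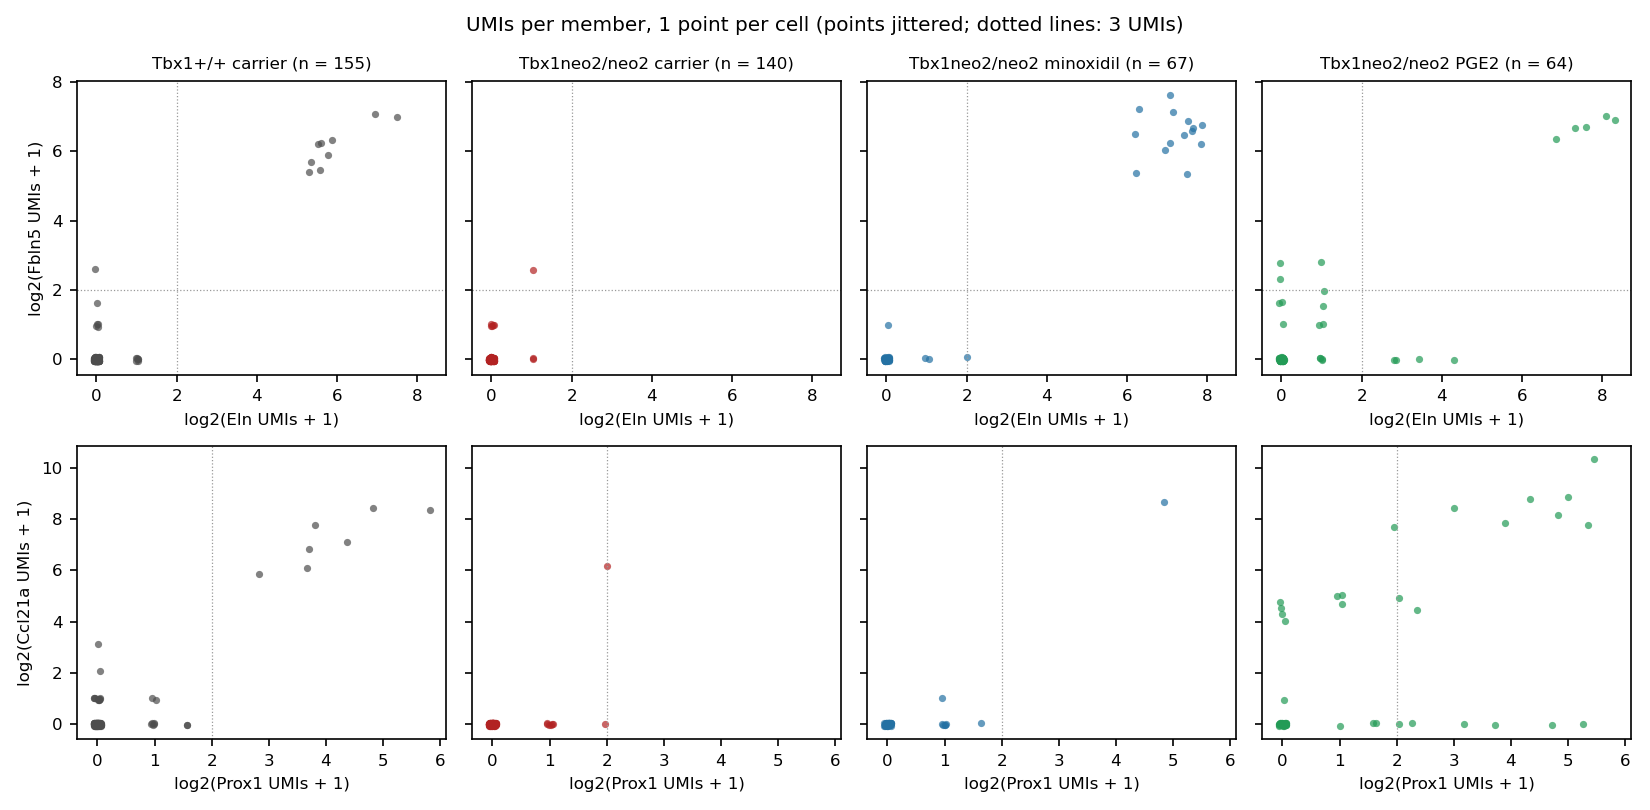
Each point is a member, placed by log2(UMIs + 1) of Eln and Fbln5 (upper panels) or of Prox1 and Ccl21a (lower panels) in each of the 4 libraries, with dotted lines at 3 UMIs. The Tbx1neo2/neo2 carrier panel has 0 cells beyond both lines for Eln and Fbln5, against 9, 14, and 5 in the others, and the PGE2 panel has 16 of the 26 cells with at least 3 UMIs of Prox1.

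Venous genes were few and mostly low. Nr2f2, the nuclear receptor gene that sets venous identity, stood at 88.0, 111, 78.4, and 160 CPM, and Ephb4, the receptor of Efnb2 on veins, at 46.9, 57.8, 51.5, and 69.9 CPM, neither called in any comparison. Aplnr stood at 177, 242, 191, and 223 CPM. Ackr1, Selp, Bst1, and Tll1, which mark mature veins and venules, had at most 6 UMIs in any library. In the Tbx1neo2/neo2 carrier members, 1 of 7 venous genes was called higher, and in the minoxidil members 1 of 6, each time Vwf (19.6, 29.5, 96.7, and 55.7 CPM, ratios 0.59 and 1.72). In the PGE2 members, 4 of 8 were called higher with a median of 0.78. These were the semaphorin and VEGF-C coreceptor gene Nrp2 (162, 166, 133, and 259 CPM, ratio 0.64), Vwf (0.92), Lrg1 (2.54, 1.89, 4.03, and 10.7 CPM), and Adgrg6 (0.34, 1.35, 2.17, and 7.50 CPM). Without the Eln and Fbln5 cells and the Prox1 cells the Nrp2 ratio with PGE2 was -0.05, and the calls of Vwf as higher with the drugs were lost. That step removed more such cells from the drug libraries than from the Tbx1neo2/neo2 carrier library, so these changes depend on the choice of cells. The Vwf call between the carrier libraries was lost, at 0.31, without the top cell of each library, which in the Tbx1neo2/neo2 carrier members held 33.0% of its UMIs, and it stayed under 1.5-fold with the 5% mitochondrial limit (0.33), with at least 6 of 8 endothelial genes (0.50), without the mesenchymal limits (0.32), with no UMI of Twist1, Prrx1, and Lum (0.21), and with the rule on thinned cells (0.15). Vwf and Nrp2 are also expressed by large arteries and lymphatic cells, so their listing as venous is loose in this tissue.

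Members were then placed in ranges. Each was thinned to 5000 UMIs, which left 149, 129, 61, and 51 members and removed 6, 11, 6, and 13 that were shallower. Arterial range meant at least 3 UMIs over 10 arterial genes and more of these than of 8 venous genes, and venous range the reverse. The arterial range held 23.5% (16.9 to 31.1), 19.4% (13 to 27.3), 32.8% (21.3 to 46.0), and 21.6% (11.3 to 35.3) of members, with overlapping intervals. The venous range held 31.5% (24.2 to 39.7), 47.3% (38.4 to 56.3), 24.6% (14.5 to 37.3), and 52.9% (38.5 to 67.1). The thinned venous intervals of the Tbx1neo2/neo2 carrier and PGE2 members lay above that of the minoxidil members, and those of the 2 carrier libraries overlapped. Unthinned shares were 27.7%, 27.9%, 38.8%, and 17.2% arterial and 52.9%, 60.0%, 40.3%, and 68.8% venous. Unthinned, the venous interval of the Tbx1neo2/neo2 carrier members (51.4 to 68.2) overlapped that of the minoxidil members (28.5 to 53.0), while that of the PGE2 members (55.9 to 79.8) did not. These ranges are cuts on a score, and 32, 27, 13, and 11 members lay within 1 UMI of the venous limit and 11, 11, 5, and 6 of the arterial limit. Thinned hematopoietic cells met the arterial rule in 0.18% to 1.01% and the venous rule in 0% to 0.53% of cells. Their median was 27117, 21497, 37619, and 33807 UMIs before thinning, against 28953, 23071, 34397, and 32828 in the thinned members. They were chosen with at most 1 of the 8 endothelial genes detected, which leaves out cells rich in free endothelial RNA. How many cells free RNA puts into a range was thus not tested.

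Across 390 thinned members, the genes whose levels followed the arterial minus venous score most closely were Sat1 (r = 0.55), the Wnt inhibitor gene Dkk2 (0.48), Vegfc (0.48), and Mecom (0.48), while Mgp (0.38 over all) had r = -0.04 in the Tbx1neo2/neo2 carrier members, where it was nearly absent. In the venous direction they were Gnas (r = -0.48), the G1 cyclin gene Ccnd1 (-0.41), and the nucleolar gene Npm1 (-0.40). These points share 4 libraries and an equal number of UMIs, so the values are descriptions.

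**Figure D3:**
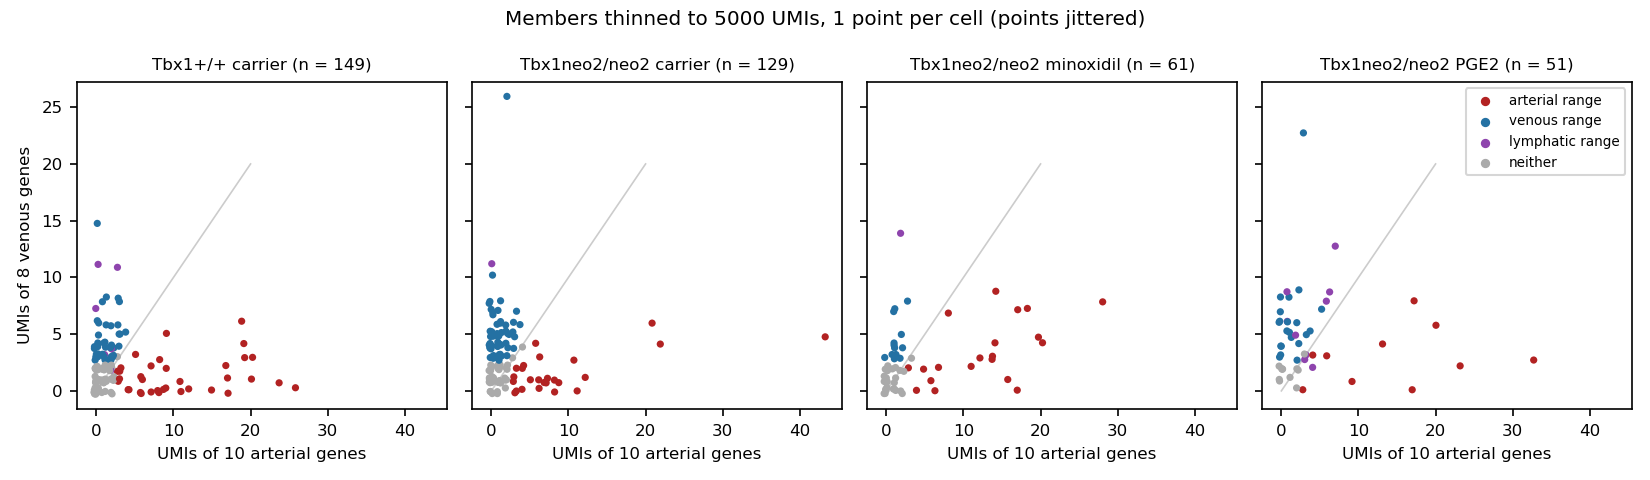
Each point is a member thinned to 5000 UMIs, with its UMIs over 8 venous genes on one axis and over 10 arterial genes on the other, colored by range, with a panel for each library. Arterial cells lie along one axis and venous cells along the other, with venous shares of 31.5%, 47.3%, 24.6%, and 52.9%.

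Lymphatic genes differed between the libraries. Prox1 (chromosome 1, 190118035 to 190170714, minus strand), the transcription factor gene that sets lymphatic identity, stood at 26.7, 3.24, 10.9, and 113 CPM. Its ratios were -3.04 (-4.03 to -2.20), 1.74 (0.76 to 2.82), and 5.13 (4.30 to 6.10). In the Tbx1neo2/neo2 carrier members, 0 of 12 lymphatic genes were called higher and 5 lower (median -0.57): Prox1, the mucin-type glycoprotein gene Pdpn, Reln, the chemokine gene Ccl21a, and Nr2f1. With the 5% mitochondrial limit, Prox1 (-1.07), Pdpn (-0.135), and Nr2f1 (-1.17) were no longer called and Reln reversed (1.32). Without the mesenchymal limits, Pdpn (-0.236) and Nr2f1 (-0.335) were not called, nor was Reln without its top cell (-1.2). In the minoxidil members, 4 of 11 were called higher and 0 lower, and in the PGE2 members 10 of 13 were called higher and 0 lower, with a median of 1.58.

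The PGE2 members stood highest for most of these genes. Lyve1, the hyaluronan receptor gene of lymphatic cells and some macrophages, stood at 1.86 CPM (11 UMIs), 0, 48.0, and 290 CPM. With no UMI in the Tbx1neo2/neo2 carrier members, it was at least 8.48 log2 units higher with PGE2 against a floor of 3 UMIs. The minoxidil value came from 1 cell that held 98.7% of its UMIs and also carried C1q transcripts of macrophages. Ccl21a, whose product attracts Ccr7-bearing cells, stood at 216, 19.7, 121, and 1475 CPM, and in each of the 2 middle libraries at least 99.7% of it was in 1 cell. Reads of Ccl21a, Ccl21b, and Ccl21c, near-identical copies, cannot be assigned with certainty. Reln stood at 5.92, 0.81, 2.79, and 51.3 CPM, Pdpn at 4.57, 1.08, 0.93, and 21.7 CPM, and Mmrn1, a multimerin gene of lymphatic endothelium, at 45.9, 41.4, 37.2, and 124 CPM. Flt4, the VEGF-C receptor gene, was shared with blood endothelium at this age and stood at 59.9, 71.1, 56.7, and 72.3 CPM, not called in any comparison.

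Again a few cells carried these levels. Members with at least 3 Prox1 UMIs, a limit set after the values were seen, numbered 7, 2, 1, and 16, which is 4.52% (1.83 to 9.08), 1.43% (0.17 to 5.07), 1.49% (0.04 to 8.04), and 25.0% (15 to 37.4) of members. By this limit the PGE2 interval does not overlap any other, while those of the first 3 libraries overlap. After thinning, the lymphatic range needed a Prox1 UMI and at least 3 UMIs of lymphatic genes, Prox1 included. It held 4.03% (1.49 to 8.56), 0.78% (0.02 to 4.24), 1.64% (0.04 to 8.80), and 17.6% (8.40 to 30.9). The same hematopoietic cells met that rule in 0% to 0.79%. In the Tbx1neo2/neo2 carrier library these were 3 of 378 hematopoietic cells (0.794%), against 1 of 129 members (0.775%). Prox1 could thus meet the rule nearly alone, as in PGE2 cells in range with 8 and 7 Prox1 UMIs among 8 lymphatic UMIs. The PGE2 interval of this range overlaps those of the Tbx1+/+ carrier and minoxidil members at its lower end, so the separation from these 2 was lost. Thinning left out 13 PGE2 members under 5000 UMIs, most of which carried Ccl21a and Lyve1. The lost separation thus depends on which cells thinning kept.

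The Prox1 cells of the Tbx1+/+ carrier and PGE2 libraries were not alike. All 7 Tbx1+/+ carrier cells had Ccl21a, with 57 to 342 UMIs a cell, but Lyve1 was at 0 to 5 UMIs, with 34.6 CPM over them against 4808 CPM of Ccl21a. Of the 16 PGE2 cells, 10 had Ccl21a, with 21 to 1295 UMIs a cell, and these had 0 to 236 Lyve1 UMIs, with 1619 CPM of Lyve1 against 8383 CPM of Ccl21a. Per 100 UMIs of Ccl21a, Lyve1 thus gave 0.72 UMIs in the Tbx1+/+ carrier cells and 19.3 in the PGE2 cells. A further 7 PGE2 members had 16 to 33 UMIs of Ccl21a with fewer than 3 of Prox1, and 2 Tbx1+/+ carrier members had 3 to 8. These 7 PGE2 members were shallow, with 2120 to 4057 UMIs each, so thinning left them out. The remaining 6 PGE2 Prox1 cells had no Ccl21a UMI. These had 1 Flt4 UMI (4.58 CPM), 2 Lyve1 UMIs, and no Pdpn UMI among them, but the forkhead gene Foxc2 in 5 cells (87.1 CPM), Nfatc1 in all 6 (156 CPM), and Nr2f2 at 344 CPM. Foxc2 and Nfatc1 are known for roles in lymphatic and heart valves, and the cardiac gene Gata4 had no UMI in any Prox1 cell. Eln had 10, 19, 6, and 6 UMIs in cells of this set and 0 in the rest, and no cell of the set had a Fbln5 UMI. These 6 cells carried 4 or more endothelial genes but few of the lymphatic genes, so Prox1 alone did not mark lymphatic endothelium here.

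Tbx1 itself (chromosome 16, 18580979 to 18590671, minus strand) was at a low level in the members, 12.5, 20, 16.4, and 20.9 CPM, and not called in any comparison. Counts near the 3' end of a transcript do not tell a normal transcript from one that runs through the cassette, so they check the labels poorly. Within the Tbx1+/+ carrier library, the 7 Prox1 cells all had Tbx1, at 92.2 CPM (24 UMIs, 59.1 to 137), whereas 37 of the other 148 members had it, at 8.85 CPM (50 UMIs, 6.57 to 11.7). The single minoxidil Prox1 cell had 11 UMIs, or 251 CPM (125 to 450), against 13.2 CPM (9.51 to 17.8) in the others. The 10 PGE2 Prox1 cells with Ccl21a had 49.4 CPM (30.6 to 75.6), the 6 without it 4.58 CPM (0.12 to 25.5), and the other members 16.4 CPM (11.2 to 23.3). In 3 libraries the Ccl21a-bearing Prox1 cells therefore had more Tbx1 than the other members beyond counting error. Outside the Prox1 cells, the Tbx1neo2/neo2 carrier members stood at 19.8 CPM (15.5 to 24.9). The ratio to the Tbx1+/+ carrier members was 0.68 (0.19 to 1.16) over all members. With the Eln and Fbln5 cells also left out it was 1.32 (0.75 to 1.89), which was called higher. The Prox1 cells left out held 24 Tbx1 UMIs in the Tbx1+/+ carrier library, against 2 and 0 in the 2 Tbx1neo2/neo2 carrier cells. The rise and the call thus follow from the choice of cells and are not a result.

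Basement membrane genes were higher in the Tbx1neo2/neo2 carrier members. Of 14 tested, 5 were called higher and 0 lower, with a median ratio of 0.49 and 14 ratios above 0. Col4a1 and Col4a2, which encode the collagen IV chains of vessel basement membranes, stood at 953, 1675, 823, and 1109 CPM and at 456, 772, 409, and 521 CPM. The Col4a1 ratios were 0.81 (0.76 to 0.87), -1.03 (-1.09 to -0.96), and -0.59 (-0.66 to -0.53). Col15a1, of a basement membrane collagen, stood at 234, 389, 223, and 260 CPM, the laminin gene Lama4 at 134, 204, 126, and 186 CPM, and the nidogen gene Nid2 at 86.6, 136, 68.5, and 96.4 CPM. The same 5 genes were called lower in the minoxidil members, where 0 of 14 were called higher, and in the PGE2 members only Col4a1 was called lower. Without the Eln and Fbln5 and Prox1 cells, which were removed unevenly between the libraries, the Col4a1 ratios were 0.74, -0.90, and -0.36, the last no longer called. The calls were close to the 1.5-fold limit. With the 5% mitochondrial limit, the ratios between the carrier members were 0.48 for Col4a1, 0.49 for Col4a2, 0.41 for Lama4, and 0.18 for Nid2, no longer called, with a list median of 0.27. With the rule on thinned cells, Col4a2 (0.54), Col15a1 (0.48), Lama4 (0.44), and Nid2 (0.37) were not called, nor were Col15a1 (0.58), Lama4 (0.45), and Nid2 (0.49) with at least 6 of 8 endothelial genes, and none of the 5 reached 2-fold.

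Capillary genes had a similar profile, with 4 of 7 called higher and 0 lower in the Tbx1neo2/neo2 carrier members (median 0.74) and 0 higher and 6 lower in the minoxidil members (median -1.06). Gpihbp1 stood at 295, 412, 194, and 283 CPM, and Rgcc, a cell cycle regulator of capillary cells, at 181, 302, 168, and 277 CPM. The water channel gene Aqp1 stood at 17.6, 36.8, 17.7, and 63.6 CPM, and the fatty acid transporter gene Cd36 at 48.9, 68.1, 38.1, and 124 CPM. In the PGE2 members, Cd36 (0.86) and Aqp1 (0.79) were called higher and Prdm1, a transcriptional repressor gene (12.9, 33.5, 13.6, and 3.95 CPM), lower. Of 12 genes of tip cells, the leading cells of sprouts, 3 were called higher and 1 lower in the Tbx1neo2/neo2 carrier members, 0 and 5 in the minoxidil members, and 2 and 4 in the PGE2 members. Over all genes, the shares called higher and lower were 3.39% and 5.41%, 7.31% and 2.66%, and 5.23% and 2.5%. The apelin gene Apln stood at 57.4, 99.2, 58.9, and 81.3 CPM, Esm1, a secreted proteoglycan gene, at 36.0, 44.1, 13, and 15.8 CPM, and the potassium channel subunit gene Kcne3 at 108, 155, 106, and 47.0 CPM.

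Immediate early genes, which are transcribed within minutes of a stimulus, were lower in the Tbx1neo2/neo2 carrier members. Of 15 tested, a heat shock gene (Hspa1a) among them, 0 were called higher and 10 lower, with a median of -1.13. Fos (chromosome 12, 85473890 to 85477273, plus strand) stood at 205, 24.9, 268, and 426 CPM, with ratios of -3.04 (-3.37 to -2.74), 3.43 (3.12 to 3.75), and 4.10 (3.79 to 4.42). Jun stood at 345, 148, 392, and 447 CPM, Junb at 210, 101, 298, and 350 CPM, Egr1 at 73.3, 33.5, 149, and 121 CPM, and Atf3 at 33.0, 9.19, 56.4, and 40.7 CPM. Of 14 tested, 12 were called higher in the minoxidil members and 11 in the PGE2 members, with 0 lower in each. Fos and Jun were also lowest in the Tbx1neo2/neo2 carrier library outside the members, where all other kept cells stood at 660, 135, 656, and 739 CPM of Fos and at 596, 419, 528, and 636 CPM of Jun. Among thinned cells, 49.7%, 10.1%, 57.4%, and 66.7% of members had a Fos UMI, against 65.1%, 35.2%, 63.6%, and 76.7% of hematopoietic cells, so the member shares lay below those of hematopoietic cells, which express Fos themselves. How much of the Fos in members is free RNA was not tested. Immediate early genes also respond to the digestion of tissue, and the part of cell handling in this result was not tested. The Fos ratios were -2.86, 3.24, and 3.70 without the Eln and Fbln5 and Prox1 cells.

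**Figure D4:**
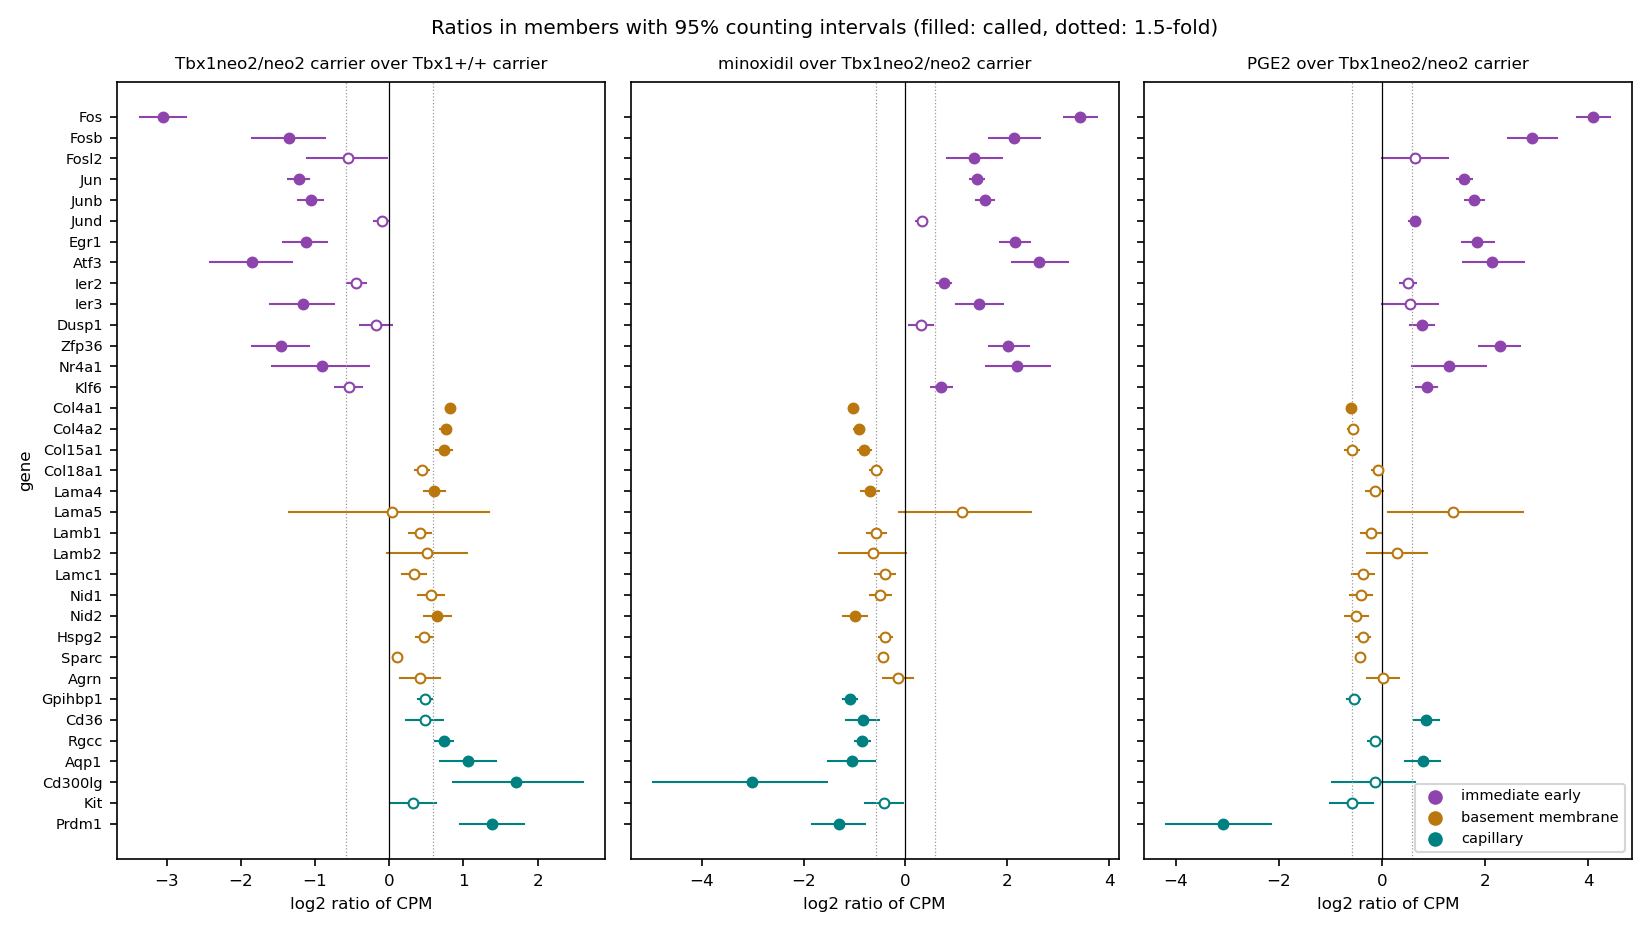
Log2 ratios of CPM with 95% counting intervals for immediate early, basement membrane, and capillary genes in the 3 comparisons, with filled points for called genes. Fos lies at -3.04, 3.43, and 4.10 and Col4a1 at 0.81, -1.03, and -0.59, and all 3 comparisons contain the Tbx1neo2/neo2 carrier library.

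Genes that respond to blood flow were called higher in 4 of 8 cases in each drug library, with 1 and 0 called lower, and in 1 of 8 with 0 lower in the Tbx1neo2/neo2 carrier members. Over all genes, 7.31% were called higher with minoxidil, 5.23% with PGE2, and 3.39% in the Tbx1neo2/neo2 carrier members. Klf2, a flow-induced transcription factor gene, stood at 293, 257, 426, and 643 CPM, with ratios of 0.73 and 1.33 in the drug comparisons, and its relative Klf4 stood at 36.9, 29.5, 65.1, and 132 CPM (1.14 and 2.16). Without the Eln and Fbln5 and Prox1 cells the minoxidil ratios were -0.18 and -0.35, not called, and the PGE2 ratios 1.13 and 1.02. That step took 14 Eln and Fbln5 cells from the minoxidil members, 5 from the PGE2 members, and 0 from the Tbx1neo2/neo2 carrier members. The lower ratios and the contrast between the drugs thus depend on the choice of cells and are not a result. The endothelin gene Edn1 stood at 11.7, 12.7, 32.5, and 23.3 CPM, and Nos3, of endothelial nitric oxide synthase, at 46.5, 61.4, 73.2, and 71.1 CPM.

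Signaling genes were called in each comparison, but most lists held few calls. Over all genes, 3.39% were called higher and 5.41% lower in the Tbx1neo2/neo2 carrier members. The shares were 7.31% and 2.66% in the minoxidil members and 5.23% and 2.5% in the PGE2 members. Counts of 1 or 2 in lists this short lie near these shares and are not results about a pathway. Of 15 Notch pathway genes, 1 was called higher in the Tbx1neo2/neo2 carrier members, Lfng, a glycosyltransferase gene that tunes Notch (7.11, 25.4, 12.7, and 27.6 CPM), and 0 lower. In the minoxidil members 2 of 15 were called higher and 1 lower, and in the PGE2 members 3 of 14 in each direction, with the Notch target gene Hes1 (79.9, 72.7, 81.5, and 126 CPM) among the higher. Ephrin and Eph genes gave 0 calls of 10 in that comparison and 1 in each direction of 9 in each drug comparison. Of 15 VEGF and angiopoietin genes, 1 was called higher and 3 lower in the Tbx1neo2/neo2 carrier members and 2 higher and 1 lower in the minoxidil members. In the PGE2 members, 5 of 14 were called higher and 0 lower. They included Vegfa, the main growth factor gene of vessels (6.43, 2.70, 15.8, and 9.48 CPM), Vegfb (24.0, 16.2, 25.1, and 35.1 CPM), and Angptl4, of an angiopoietin-like protein (11.2, 6.49, 9.61, and 17.0 CPM). The lymphatic growth factor gene Vegfc stood at 36.2, 23.8, 34.1, and 18.2 CPM and Angpt1, the ligand of Tek, at 8.80, 1.89, 10.9, and 1.97 CPM. Of 15 BMP and TGFb pathway genes, 2 were called higher and 2 lower in that comparison, including Bmp4 (15.2, 6.22, 36.6, and 40.3 CPM), which was called higher with both drugs. In the minoxidil members 4 of 14 were called higher and 1 lower, with the inhibitory Smad genes Smad6 (6.94, 12.2, 30.4, and 7.50 CPM) and Smad7 (62.6, 80.5, 134, and 59.2 CPM) among the higher, and in the PGE2 members 1 of 14 was called higher and 0 lower. Madcam1, an adhesion molecule gene for homing leukocytes, stood at 18.3, 55.7, 32.9, and 30.4 CPM and gave the highest ratio among genes at 50 CPM or more in the Tbx1neo2/neo2 carrier members (1.61, 1.26 to 1.96), with 108 and 206 UMIs in 51 and 58 cells.

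The targets of the drugs themselves were scarce. Minoxidil opens potassium channels built from Kcnj8 and Abcc9, which stood at 19.3, 3.78, 7.13, and 2.37 CPM and at 35.4, 32.2, 27.6, and 19.7 CPM. Kcnj8 was called lower in the Tbx1neo2/neo2 carrier members (-2.35) and not called with either drug, and Abcc9 was called lower with PGE2 (-0.70). The authors list Kcnj8 as a pericyte marker, and the part of pericyte RNA in its level in members was not tested. The PGE2 receptor genes Ptger1 to Ptger4 and the PGE2 synthesis genes Ptgs2 and Ptges had at most 18 UMIs each in any library. Hpgd, which degrades PGE2, stood at 70.7, 73.0, 72.5, and 54.5 CPM, and Slco2a1, which imports it, at 9.31, 17.6, 8.99, and 16.2 CPM.

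Transcription factor families showed small differences. Over all genes, 3.39% were called higher and 5.41% lower in the Tbx1neo2/neo2 carrier members. Of 8 Sox genes, 3 were called higher and 0 lower in the Tbx1neo2/neo2 carrier members: Sox7, Sox11 (154, 285, 143, and 128 CPM), and Sox13 (14.6, 25.4, 19.8, and 15.4 CPM). The Sox7 call was lost with the 5% mitochondrial limit (0.483), with at least 6 of 8 endothelial genes (0.511), and with each cell weighted equally (0.517). Without the mesenchymal limits, neither Sox7 (0.551) nor Sox13 (0.375) was called, nor with the rule on thinned cells (0.349 and 0.335). None of the 3 reached 2-fold. Sox11, a factor of immature cells, was called lower with both drugs (-1.0 and -1.15). Sox9, the chondrogenic factor, had 6, 14, 12, and 1 UMIs and was not called. Of 12 Hox genes, Hoxa7 (ratio 1.43), Hoxb7 (4.06 and 10.5 CPM in the carrier members), and Hoxd8 (8.63 and 18.9 CPM) were called higher in the Tbx1neo2/neo2 carrier members and 0 lower, and Hoxb7 was called lower with both drugs. The hypoxia-inducible gene Epas1 (58.9 and 124 CPM in the carrier members), Plekha1 (42.6 and 90.8 CPM), and Zfpm1 (28.1 and 58.9 CPM) were among the genes with the highest ratios there.

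Several genes with the largest ratios belong to blood cells. Hba-x, Hbb-y, Ifitm1, Gzma, and Plac8 were among the 10 lowest ratios of the Tbx1neo2/neo2 carrier members. Lyz2, C1qb, C1qc, and Tyrobp, of macrophages, were among the 10 highest in the minoxidil members, where Hbb-bs, Hba-a1, Hba-a2, and Hbb-bt were among the 10 lowest. The copies of each hemoglobin gene are nearly identical, so their separate values are uncertain. Macrophage genes summed to 111, 28.7, 422, and 44.6 CPM, with 89.7% of the minoxidil value in 1 cell, and erythroid genes to 8389, 2116, 293, and 4099 CPM, with 66.3%, 89.1%, and 95% of the Tbx1+/+ carrier, Tbx1neo2/neo2 carrier, and PGE2 values in 1 or 2 cells. Hematopoietic genes summed to 286, 63.5, 273, and 75.8 CPM. Nts, the neurotensin gene, was also among the lowest ratios of the Tbx1neo2/neo2 carrier members (323, 36.2, 308, and 249 CPM, with 51.5% of the minoxidil UMIs in 1 cell). With PGE2 the highest ratios included Fgl2 (0.51, 0.54, 0.93, and 71.1 CPM), Ptx3 (8.97, 2.16, 1.55, and 50.9 CPM), and Fibin (2.20, 1.35, 1.24, and 54.1 CPM) besides lymphatic and elastic fiber genes, and the lowest included Xist, Kcne3, and Myo10 (121, 222, 104, and 81.7 CPM).

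Transcripts of other cell types were also counted. Mesenchymal genes summed to 79.5, 61.4, 131, and 124 CPM in the members, which is 4.75%, 1.36%, 6.10%, and 7.78% of their level in the other kept cells, and epithelial genes to 60.9, 22.2, 61.1, and 41.1 CPM, or 1.60% to 2.34% of theirs. Chondrogenic genes summed to 38.1, 24.1, 49.0, and 47.0 CPM, which is 70.9%, 3.81%, 85.9%, and 131% of their level in the other kept cells, with Acan and Matn1 at 0 in all 4 libraries. Most of these UMIs were of Hapln1, a matrix link protein gene (34.0, 14.6, 39.4, and 45.0 CPM), which the endocardial list also holds. Endocardial genes summed to 76.1, 44.6, 118, and 135 CPM, or 40.4%, 15.7%, 60.8%, and 102% of their level in the other kept cells. Their median ratios were -1.04, 1.43, and 1.53, with 0 called higher and 2 lower of 5 in the Tbx1neo2/neo2 carrier members, 3 higher and 0 lower of 5 with minoxidil, and 4 higher and 0 lower of 6 with PGE2. This list had medians of the same sign as the lymphatic list (-0.566, 0.533, and 1.58) but not as the arterial list (0.0946, 0.148, and -0.334). Its member Gata6, a transcription factor gene (7.78, 3.78, 39.1, and 22.9 CPM), had 54.3%, 90.5%, and 51.7% of its UMIs in the Eln and Fbln5 cells, while the cardiac genes Gata4 and Gata5 had almost none. Glial and neuronal genes summed to 48.2, 49.2, 204, and 87.3 CPM, nearly all of it Stmn2 (45.0, 46.5, 202, and 85.3 CPM), with Sox10 and Foxd3 at 0 in all 4, and 93.4% of the minoxidil Stmn2 UMIs lay in the Eln and Fbln5 cells. Mural genes, of pericytes and smooth muscle, summed to 67.2, 47.0, 66.6, and 37.1 CPM, or 9.30% to 33.2% of their level elsewhere, and the smooth muscle genes Myh11 and Cnn1 had no UMI in the Tbx1+/+ carrier, minoxidil, and PGE2 members. Their part in the results above was not tested.

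The mesenchymal limits mattered most for matrix genes. Without the limits on Pdgfra, Twist1, Prrx1, and Lum, 28, 35, 8, and 7 cells joined, which made 183, 175, 75, and 71, and the genes called higher in the Tbx1neo2/neo2 carrier cells rose in number from 364 to 707. The cells with at least 4 endothelial genes that the absence limits had left out held 756, 4762, 1215, and 706 CPM of mesenchymal genes, so mesenchymal transcripts were most abundant in those of the Tbx1neo2/neo2 carrier library. The ratio of Sox9 went from 1.90 (not called) to 4.28, and that of Col1a1, of fibrillar collagen, from -0.17 to 2.24. The cartilage collagen gene Col2a1 had 5 UMIs and 1 UMI in the 2 sets of carrier members, too few to compare, and stood at 39.1 and 0.14 CPM without the limits. The lysyl oxidase gene Lox, which crosslinks collagen and elastin, went from -2.05 (called lower) to 1.56 (called higher). Of the 99 genes compared, 23 went from no call to higher and 1 to lower, while 5 lost a higher and 2 a lower call. Fos, Efnb2, Ephb4, Sox11, and Col4a1 kept nearly the same ratio with and without the limits.

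**Figure D5:**
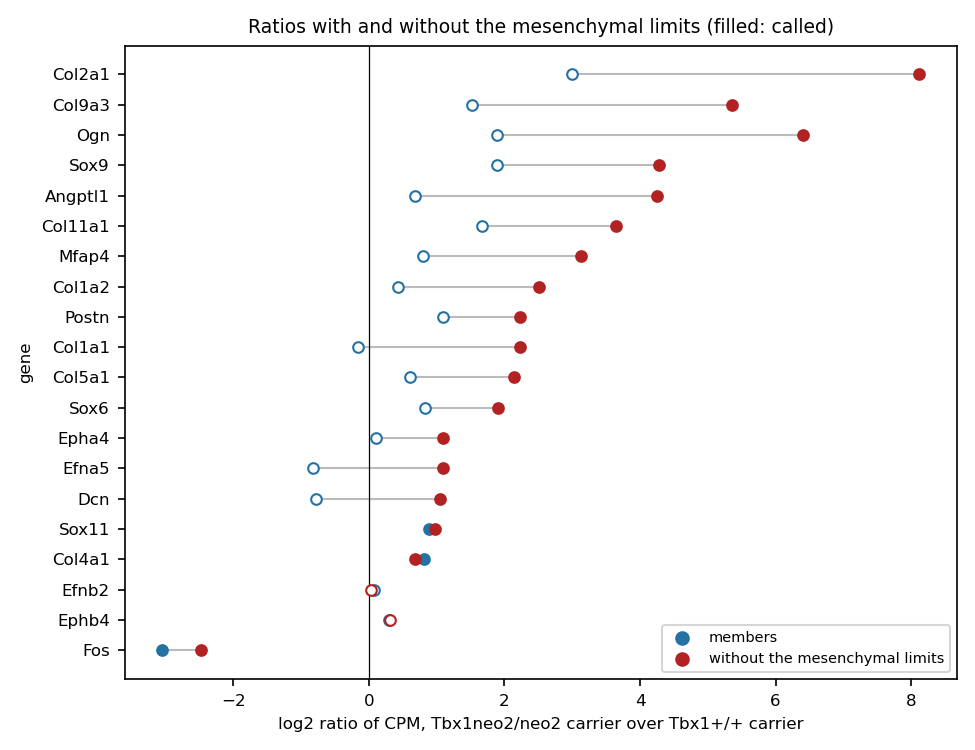
Log2 ratios of the Tbx1neo2/neo2 carrier to the Tbx1+/+ carrier library in the members and in the cells chosen without the limits on Pdgfra, Twist1, Prrx1, and Lum, with filled points for called genes and open points for genes not called or under 20 UMIs. A gene with no UMI in one of the libraries is drawn against a floor of 3 UMIs. Sox9 moves from 1.90 to 4.28, whereas Fos, Efnb2, Ephb4, Sox11, and Col4a1 stay near their values.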

How the data were processed

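The authors made the deposited UMI counts per gene and cell barcode with Cell Ranger 5.0.1 by alignment to mm10, and left them unnormalized. The treatment of intronic reads is not given in the sources used here. Each of the 4 libraries was a matrix of 27998 genes. Members and gene lists were chosen with earlier results of these data known. Cells with under 200 genes or over 10% mitochondrial UMIs were left out, since the methods give no number for the second limit. UMIs were summed over the members of a library, and levels are CPM of these sums with exact Poisson 95% intervals. Shares have exact Clopper-Pearson 95% intervals. Log2 ratio intervals came from the conditional binomial distribution, and a gene without UMIs was given a floor of 3 counts. These intervals and floors cover counting error only. With 1 library a condition there was no test and no p-value. A call needed at least 20 UMIs, 1.5-fold, and intervals that did not overlap. Named genes were the lists, Tbx1, the 10 highest and 10 lowest ratios among called genes with at least 50 CPM in a library compared, the 15 genes most enriched in members, and the 10 genes correlated most with the arterial minus venous score in each direction; some are given by name or as counts. The limits on Eln, Fbln5, and Prox1 UMIs were chosen after values were seen. Coordinates are those of GENCODE for GRCm38 (mm10), matched by Ensembl ID. The calls were run on simulated Poisson counts with known 3-fold changes and no spread between cells or embryos. The intervals assume such counts, so this run checks the code and not how the calls behave on these cells. Tools were Python 3.11.15, numpy 2.4.6, scipy 1.17.1, pandas 2.3.3, matplotlib 3.10.9, Scrublet in scanpy 1.11.5, and edgeR 4.0.16 (R 4.3.3) for TMM factors.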

Additional observations from a re-analysis of the deposited data

How the results depend on the processing

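No paired analysis was possible because the labels carry no replicate numbers and each condition had 1 library. Leaving out the members that had an Eln and Fbln5 or a Prox1 signal, those rich in hemoglobin, C1q, or Ptprc, and the top cell of each gene were chosen after seeing the data. Comparisons are named here by their first library. Unless stated, the cause of each shift below was not tested. With 1 library a condition, depth limits only the counting error, and the low genes of the minoxidil and PGE2 members are the least certain.

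With a limit of 5% mitochondrial UMIs, the share of members in the Tbx1neo2/neo2 carrier library was 0.91%. Genes called higher and lower numbered 221 and 258 for Tbx1neo2/neo2 carrier, and genes called higher 406 for minoxidil and 302 for PGE2. For Tbx1neo2/neo2 carrier, the lymphatic, basement membrane, and capillary medians were 0.129, 0.272, and 0.385, and Eln (1.32), Mgp (0.155), Fbln5 (1.15), and Reln (1.32) reversed. For minoxidil the lymphatic median was -0.324, and Hbb-bs (0.576), Hba-a1 (0.202), Hba-a2 (0.453), Hbb-bt (1.86), Prox1 (-0.798), Ccl21a (-2.38), and Foxc2 (-0.283) reversed. For PGE2 the venous median was 0.257 and Unc5b (0.32) reversed.

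With at least 6 of 8 endothelial genes, the shares were 1.12% in the Tbx1+/+ carrier and 1.59% in the minoxidil library, calls numbered 233 higher and 359 lower for Tbx1neo2/neo2 carrier and 483 higher for minoxidil, and C1qb (-1.2), C1qc (-1.2), Tyrobp (-2.2), and Lyve1 (-0.2) reversed for minoxidil. Without the mesenchymal limits, the shares were 1.59% and 1.64% in the carrier libraries, and calls numbered 707 higher for Tbx1neo2/neo2 carrier, 464 lower for minoxidil, and 481 lower for PGE2. The basement membrane medians were then -0.365 and -0.143 for the drugs, the PGE2 arterial and lymphatic medians 0.169 and 2.1, and Fibin (-0.15) and Nr2f1 (-0.444) reversed for PGE2. With no UMI of Twist1, Prrx1, and Lum, the Tbx1neo2/neo2 carrier share was 1.06%, the minoxidil venous median -0.571, and Hbb-bs (0.613), Hba-a1 (0.128), Hba-a2 (0.495), and Hbb-bt (2.76) reversed for minoxidil. With the rule applied to thinned cells, the carrier shares were 1.68% and 1.64%, PGE2 calls lower numbered 395, the minoxidil venous and basement membrane medians were 0.0517 and -0.303, the PGE2 lymphatic median was 2.11, and Lyz2 (-0.378) and Lyve1 (-1.82) reversed for minoxidil.

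Without members with a Ptprc UMI, calls numbered 354 lower for Tbx1neo2/neo2 carrier and 472 higher for minoxidil, whose lymphatic and capillary medians were -0.24 and -0.668, with C1qb (-1.18), C1qc (-1.18), Tyrobp (-1.92), Prox1 (-0.372), Lyve1 (-0.179), and Ccl21a (-5.78) reversed. Without members rich in hemoglobin, C1q, or Ptprc, the Tbx1+/+ carrier share was 1.09%, calls numbered 211 higher and 327 lower for Tbx1neo2/neo2 carrier and 466 higher for minoxidil, and the medians were 0.325 for basement membrane (Tbx1neo2/neo2 carrier) and -0.189 and -0.68 for lymphatic and capillary genes (minoxidil). Without the Eln and Fbln5 and Prox1 members, which takes artery cells from every library but the Tbx1neo2/neo2 carrier one and so by construction shifts arterial and lymphatic genes, PGE2 calls higher numbered 240, and the medians were 0.269 (lymphatic, Tbx1neo2/neo2 carrier), -0.683 and -0.24 (arterial and lymphatic, minoxidil), and 0.172 and 0.0199 (venous and lymphatic, PGE2). Without the top cell of each gene, calls numbered 501 higher for minoxidil and 441 lower for PGE2, the minoxidil lymphatic median was -0.115, and C1qb, C1qc, Apoc1, and Ccl21a (each -1.39), Hbb-bt (1.32), and Lyve1 (-0.387) reversed for minoxidil.

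With each cell weighted equally, the medians were -1.13 (lymphatic, Tbx1neo2/neo2 carrier), 0.521 (arterial, minoxidil), and 1.25 and 2.54 (venous and lymphatic, PGE2), and Vwf (-0.183) reversed for Tbx1neo2/neo2 carrier. At least 100 UMIs left 354 lower for Tbx1neo2/neo2 carrier, 403 higher for minoxidil, and 303 higher for PGE2. A 2-fold limit left 77 higher and 363 lower for Tbx1neo2/neo2 carrier, 91 lower for minoxidil, and 333 higher and 75 lower for PGE2. TMM factors reversed no named gene.

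Thinned to 10000 UMIs, the venous range held 50.4%, 60.7%, and 43.4% in the first 3 libraries and the arterial range 29% in Tbx1neo2/neo2 carrier. A limit of 2 UMIs gave 40.9% venous in Tbx1+/+ carrier. Unthinned, the venous range held 52.9%, 60%, 40.3%, and 68.8%, the lymphatic range 9.68%, 5%, 8.96%, and 34.4%, and the arterial range 27.9% in Tbx1neo2/neo2 carrier.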
